A study of Mus musculus with 12 samples.

Results

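Wdfy1 is 1 of the 27179 genes in the deposited count table from mouse cortex, and 1 of the 15298 that had enough counts to be tested. It was taken by its gene symbol and followed in all 12 libraries. It was chosen by its raised level in both progranulin-null lines, as measured in these same libraries, so its differences from wild type are given here as a description, with no p-value. The libraries came from 4 KO, 4 MUT and 4 WT samples. KO mice were Grn-/-, a genotype null for mouse progranulin, and were 282 to 308 days old. MUT mice were also Grn-/- and carried in addition a human progranulin allele labelled GRNmEx5, in a line described as humanized and progranulin deficient, and were 272 to 309 days old. WT mice were Grn+/+ and were 287 to 375 days old. No treatment is given for any group, and the labels give no strain or substrain, no breeding scheme and no statement that each library came from its own animal. The p-values below therefore measure the spread between these libraries.

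WDFY1 is an adaptor protein of early endosomes. It is built from WD40 repeats, a propeller fold on which other proteins dock, and a FYVE domain, a zinc-binding module that holds phosphatidylinositol 3-phosphate (PI3P), the lipid that marks early endosomal membrane. It is known for recruiting the adaptor TRIF, encoded by Ticam1, to the toll-like receptors TLR3 and TLR4, which sense double-stranded RNA and bacterial lipopolysaccharide. Progranulin is a secreted glycoprotein that is carried through endosomes to lysosomes, and in the brain it is made by neurons and microglia.

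In the deposited table Wdfy1 (Entrez 69368) lies on the minus strand of chromosome 1, at chr1:79702262-79761769 in mm10 (GRCm38). Its gene model there has 12 exons with a summed length of 4714 bases, and 0 other genes of the table overlap it. The coding bases for the most conserved stretch of the FYVE domain, which binds the lipid, are shown for Wdfy1 and for its closest relative, Wdfy2, since reads can be mixed up where such paralogs are alike. Both were read 5′ to 3′ from GENCODE M21 transcripts. The capitals mark 18 bases that encode the lipid-binding motif, and they are joined from exons 9 and 10 in both genes.
Wdfy1: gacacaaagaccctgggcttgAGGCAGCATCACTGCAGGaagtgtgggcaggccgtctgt
Wdfy2: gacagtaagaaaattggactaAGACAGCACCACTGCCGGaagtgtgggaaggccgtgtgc
The Wdfy1 window spans chr1:79707550-79709119 on the minus strand and the Wdfy2 window chr14:62951990-62953044 on the plus strand, each with an intron left out. The motif took up coding bases 928 to 945 in both genes. The windows shared 45 of 60 bases, and the coding sequences up to the end of the motif shared 64.3% of 945 bases. The Wdfy1 transcript of 4551 bases shared 0 of its 4502 stretches of 50 bases with Wdfy2, and 17 of them (0.378%) with any other gene. Of the 14 Wdfy1 transcripts in that annotation 10 have a coding sequence, and 4 of these hold the motif bases. The counts are per gene and do not tell these transcripts apart.

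Grn was low but still counted in every null library. Grn stood at 10.8 to 14.0 CPM (counts scaled to a common library size) in KO libraries and 11.5 to 15.3 CPM in MUT libraries, against 57.05 to 59.95 CPM in WT libraries. The mean was 22.0% of the WT mean in KO and 23.2% in MUT. The source of these remaining Grn reads was not tested. Library totals ran from 16381221 to 20782195 counts. The 12 cortical neuron markers, all detected, summed to 9085 to 10058 CPM in KO, 8962 to 9811 CPM in MUT and 9771 to 12395 CPM in WT libraries. The 13 striatal neuron markers, all detected, summed to 259 to 415 CPM in KO and 268 to 354 CPM in MUT libraries. In WT replicates 1 to 4 they summed to 292, 598, 1039 and 2009 CPM. The 12 choroid plexus markers, all detected, stood far higher in KO replicate 3 (2871 CPM), MUT replicate 1 (2264 CPM) and WT replicate 4 (1230 CPM) than in the other libraries. The sex labels went against sex-linked transcripts in all 12 libraries: Xist was at most 1.05 CPM in the 6 libraries labelled female and at least 464 CPM in the 6 labelled male. The labels still split the libraries in the same way, so sex is called labelled sex here.

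Wdfy1 was about 2 times as high in both progranulin-null lines as in WT cortex. Its level was 42.6, 43.2, 61.6 and 44.3 CPM in KO replicates 1 to 4. In MUT replicates 1 to 4 it was 43.1, 64.2, 41.8 and 59.9 CPM. In WT replicates 1 to 4 it was 25.7, 22.0, 22.5 and 23.2 CPM. Every null library lay above every WT library, and the KO and MUT libraries overlapped over most of their range. These levels rest on 793 to 1110 counts in KO, 729 to 1214 counts in MUT and 389 to 467 counts in WT libraries. The counting error is small against the gap: the lowest null library has a 95% Poisson interval of 38.8 to 44.9 CPM, and the highest WT library one of 23.4 to 28.1 CPM. Intervals of this kind cover counting error only.

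**Figure D1:**
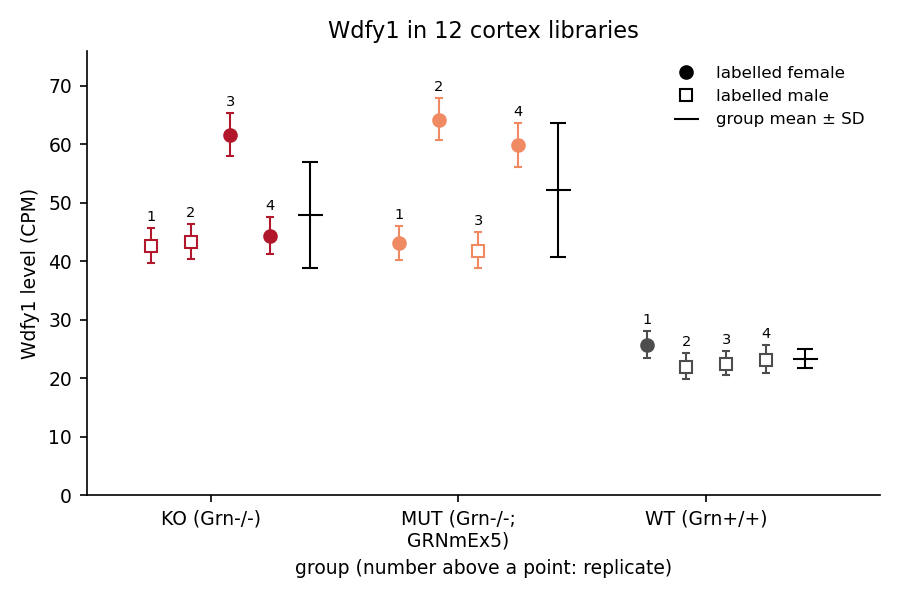
Wdfy1 level (CPM, vertical axis) in each of the 12 libraries, with groups along the horizontal axis. Points are libraries with 95% counting intervals, filled circles are labelled female, open squares labelled male, and black bars are the group mean ± SD. The 8 null libraries lie between 41.8 and 64.2 CPM, above the 4 WT libraries at 22.0 to 25.7 CPM.

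The group mean was 47.9 ± 9.11 CPM in KO and 52.2 ± 11.5 CPM in MUT libraries, against 23.4 ± 1.64 CPM in WT libraries (SD, n = 4 each). KO thus stood at 205% and MUT at 224% of the WT mean. Per kilobase of exon the means were 10.2 in KO, 11.1 in MUT and 4.95 CPM per kb in WT libraries. On the log2 scale, with labelled sex in the model, the fitted difference was 0.96 for KO minus WT (SE 0.13, fold 1.94, 95% interval 1.59 to 2.37). For MUT minus WT it was 1.0 (SE 0.14, fold 2.0, 95% interval 1.62 to 2.48). KO and MUT were set against the same 4 WT libraries, so the MUT value is no independent repeat of the KO value. These are bulk samples, in which more RNA per cell and more cells that hold the RNA cannot be told apart.

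The gap between null and WT libraries can be placed among all genes. The lowest null library stood 1.63 times above the highest WT library. By that ratio Wdfy1 ranked 2 of 15298 tested genes, which describes how it was chosen. The gene just above it, Arhgap27os3, had a ratio of 3.72, resting on a WT maximum of 0.0988 CPM. The gene just below it, Meox1, had a ratio of 1.41. Both lie on chromosome 11, and both were named after their values were seen. All 8 null libraries lay above all 4 WT libraries for 205 genes, 1.34% of those tested. In edgeR's quasi-likelihood test with Benjamini-Hochberg adjustment over all 15298 genes, 75 genes (0.49%) passed an adjusted p of 0.05 in KO against WT and 2 genes (0.0131%) in MUT against WT. These shares are the background for the counts below. Over the settings tried, the fitted difference of Wdfy1 stayed between 0.88 and 1.08 for KO minus WT.

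The null libraries did not spread evenly. Of the 8, 5 lay at 41.8 to 44.3 CPM and 3 at 59.9 to 64.2 CPM, with a step of 15.6 CPM and no library between. The 3 upper ones were KO replicate 3 and MUT replicates 2 and 4. The coefficient of variation was 19.0% in KO and 21.9% in MUT libraries, against 7.01% in WT libraries. Of the 3 upper libraries only KO replicate 3 was high in choroid plexus markers. The other libraries high in those markers stood at 43.1 CPM of Wdfy1 (MUT replicate 1) and 23.2 CPM (WT replicate 4). The remaining MUT libraries were at 64.2, 41.8 and 59.9 CPM, and the remaining WT libraries at 25.7, 22.0 and 22.5 CPM. Leaving out the 3 libraries high in choroid plexus markers gave log2 differences of 0.90 (SE 0.10) for KO minus WT and 1.14 (SE 0.10) for MUT minus WT. With the striatal marker level as a term in the model they were 1.08 (SE 0.16) and 1.13 (SE 0.17). The 10 oligodendrocyte markers, all detected, summed to 4525 to 5415 CPM in KO and 3927 to 4680 CPM in MUT libraries, against 3277 to 4617 CPM in WT libraries, and were highest in KO replicate 3. The part of oligodendrocytes in the Wdfy1 levels was not tested. Age and group cannot be fully told apart, as 3 WT libraries came from mice aged 375 days. The same 3 libraries were labelled male and were above every null library in striatal markers. Striatal level, age and labelled sex therefore cannot be told apart within WT. The WT library of 287 days, which is also the only WT library labelled female, was at 25.7 CPM. Among mice under 310 days, where that library is the only WT sample and is assumed to vary like the others, the differences were 1.06 (SE 0.27) for KO and 1.10 (SE 0.26) for MUT.

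Wdfy1 did not differ detectably between the 2 null lines. It was chosen for its height in both of them, which favours a small difference, so this comparison is no fair test. The difference for MUT minus KO was 0.05 on the log2 scale (SE 0.13, 95% interval -0.23 to 0.32, edgeR adjusted p = 0.996). This interval leaves room for a fold between 0.852 and 1.25. In that comparison 1 gene of 15298 (0.00654%) passed the threshold. The sign of so small a difference turned with the libraries used: it was -0.06 without KO replicate 4, -0.04 without MUT replicate 2 and -0.04 in labelled males alone, where MUT has 1 library. Without the 3 libraries high in choroid plexus markers it was 0.24 (SE 0.10, adjusted p = 0.985).

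Within each group, libraries labelled female were higher than those labelled male. These labels run opposite to the sex-linked transcripts, so the higher libraries were those with the male transcript pattern. Summed Y-linked genes were at 153 to 173 CPM in libraries labelled female and at most 0.344 CPM in those labelled male. In KO the labelled females were at 61.6 and 44.3 CPM and the labelled males at 42.6 and 43.2 CPM. In MUT the labelled females were at 43.1, 64.2 and 59.9 CPM and the labelled male at 41.8 CPM. In WT the labelled female was at 25.7 CPM and the labelled males at 22.0 to 23.2 CPM. The ranges did not overlap in any of the 3 groups, but MUT had only 1 labelled male and WT only 1 labelled female. The share of all tested genes that split in this way was not counted, so the split has no background. In KO (44.3 and 43.2 CPM) and MUT (43.1 and 41.8 CPM) the nearest libraries were close, with overlapping counting intervals. The fitted difference for labelled female minus labelled male was 0.30 on the log2 scale (SE 0.11, 95% interval 0.06 to 0.55). It did not pass edgeR's adjustment over all genes (unadjusted p = 0.0207, adjusted p = 0.768), and 8 genes (0.0523%) did. All 3 upper null libraries were labelled female, as were 2 of the 5 lower ones.

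The genes around Wdfy1 were examined to see whether any of them was also higher in the null lines. Within 2 Mb of Wdfy1 the table holds 20 other genes, of which 13 had enough counts to be tested. None of the 13 passed the threshold in KO against WT, in MUT against WT or in MUT against KO by edgeR's quasi-likelihood test. At an unadjusted p under 0.05 there were 5 in KO, all lower than WT, 0 in MUT, and 1 in MUT against KO. Over all tested genes 17.6% reached that level in KO, 10.9% in MUT and 5.67% in MUT against KO. The median log2 difference over the 13 was -0.12 for KO and -0.09 for MUT, beside 0.0047 and 0.0036 over all genes tested. The highest values were 0.13 in KO and 0.31 in MUT, both of Dock10, so no tested neighbour came near the 0.96 and 1.0 of Wdfy1. DESeq2 called 2 of the 13 in KO, where it called 4.23% of all genes, and limma-voom called 0, where it called 0.346%.

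**Figure D2:**
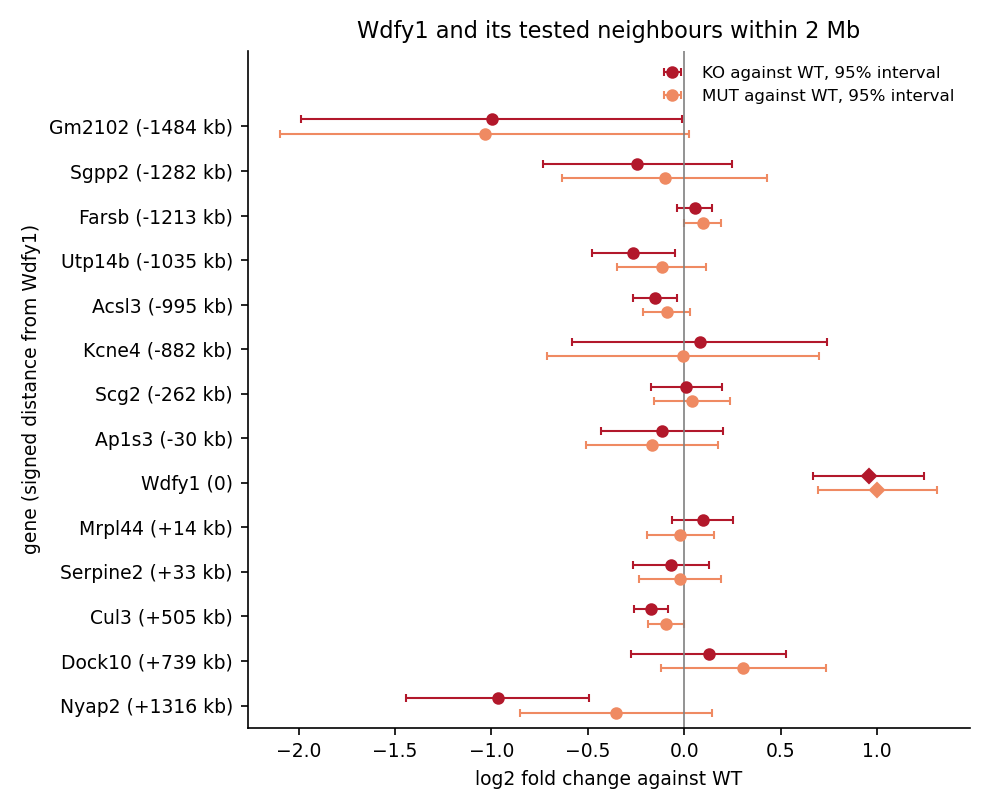
Log2 fold change against WT (horizontal axis) for Wdfy1 and its 13 tested neighbours, ordered along the chromosome with the signed distance from Wdfy1 in kilobases (vertical axis). Dark red is KO against WT, orange is MUT against WT, and bars are 95% intervals. Wdfy1 (diamonds) is at 0.96 and 1.0, and the neighbours reach at most 0.13 in KO and 0.31 in MUT.

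The nearest tested gene, Mrpl44, encodes a protein of the mitochondrial ribosome and begins 14.2 kb from Wdfy1. Mrpl44 was at 21.7, 22.6, 20.2 and 20.1 CPM in KO libraries and 20.02, 20.2, 17.5 and 21.03 CPM in MUT libraries, against 20.7, 18.9, 20.4 and 18.7 CPM in WT libraries. Its 3 groups overlapped (log2 differences 0.10, SE 0.07, and -0.02, SE 0.08). Ap1s3, which encodes a sorting adaptor subunit that works between the Golgi and endosomes, lies 30.3 kb away on the other side. Ap1s3 was at 3.20, 3.30, 3.11 and 4.36 CPM in KO libraries and 4.01, 3.60, 2.98 and 3.22 CPM in MUT libraries, against 3.63, 3.56, 3.76 and 3.76 CPM in WT libraries. The KO and MUT values of Ap1s3 lay on both sides of the narrow WT range.

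Serpine2, a secreted inhibitor of serine proteases, lies 32.6 kb away. Serpine2 was at 118, 122, 130 and 122 CPM in KO libraries and 143, 116, 122 and 125 CPM in MUT libraries, against 114, 116, 141 and 146 CPM in WT libraries. Scg2, which encodes a secretory granule protein, lies 262 kb away. Scg2 was at 247, 262, 218 and 220 CPM in KO libraries and 233, 273, 237 and 211 CPM in MUT libraries, against 244, 256, 213 and 235 CPM in WT libraries. Both genes overlapped between groups, and their fitted log2 differences lay between -0.07 and 0.04.

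Farther out, a few neighbours had lower levels in KO libraries without passing the test. Cul3, the scaffold of a family of ubiquitin ligases, lies 505 kb away and was at 121, 117, 117 and 116 CPM in KO libraries and 121, 124, 125 and 123 CPM in MUT libraries. In WT libraries Cul3 was at 130, 136, 127 and 140 CPM. All KO and all MUT libraries lay below the WT libraries. Taken singly, 9.11% of all tested genes did not overlap WT in KO and 7.09% in MUT, counting both directions. The share with both null lines lower together was not counted. The fitted difference of Cul3 by edgeR was -0.17 for KO minus WT (SE 0.04, adjusted p = 0.0758), and for MUT minus WT it was -0.09 (SE 0.04, adjusted p = 0.46). Nyap2, a neuronal adaptor of phosphoinositide 3-kinase signalling, lies at 1316 kb and was at 6.09, 3.41, 6.65 and 4.86 CPM in KO libraries and 8.85, 8.94, 7.11 and 7.78 CPM in MUT libraries. In WT libraries Nyap2 was at 8.69, 12.0, 7.41 and 12.2 CPM. Only KO lay wholly below WT for Nyap2 (log2 difference -0.97, SE 0.22, adjusted p = 0.0727), while MUT overlapped it (-0.35, SE 0.23, adjusted p = 0.601).

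The third gene whose KO libraries lay wholly below WT was Acsl3, which activates long-chain fatty acids, at 202 to 208 CPM in KO against 215 to 236 CPM in WT libraries (-0.15, SE 0.05, adjusted p = 0.169). Utp14b starts at the same base and strand as Acsl3, so their reads may be mixed. It was at 6.50 to 9.04 CPM in KO and 8.60 to 10.4 CPM in WT libraries. Gm2102, the last of the 5, was at most 1.25 CPM in every library. The other tested neighbours, Sgpp2, Farsb, Kcne4 and Dock10, had adjusted p-values of at least 0.465. Of the 7 untested neighbours, Pax3 had 42 counts over the 12 libraries, Mogat1 had 11 and Fam124b had 8. The remaining 4 had 0 to 10 counts, among them Gm10555, which starts 0.948 kb from Wdfy1 and had 0. The count of neighbours called in KO changed with the model and with the libraries used. With all libraries kept, DESeq2 called 2, where it called 4.23% of all genes. The choroid plexus marker level as a term also gave 2 (2.07% of all genes), as did no sex term (1.92%). The count was 0 without WT replicate 2 and without WT replicate 4. It was 3 without WT replicate 1 (Cul3, Nyap2 and Sgpp2, all lower), when 1620 genes (10.5%) were called over all genes. It was 2 without WT replicate 3 (Cul3 and Nyap2), when 170 genes (1.1%) were called. In MUT it was 1 without WT replicate 1 (Sgpp2), when 1030 genes (6.65%) were called.

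The next question was whether genes that work beside Wdfy1 moved with it. The lists drawn up for this held 138 genes besides Wdfy1, in 6 groups, and 124 were tested. By edgeR's quasi-likelihood test 0 of the 124 passed the threshold in KO against WT and 0 in MUT against WT. At an unadjusted p under 0.05 there were 21 in KO (16.9%, beside 17.6% of all genes) and 19 in MUT (15.3%, beside 10.9% of all genes). DESeq2 called 6 of the 124 in KO and 0 in MUT, where it called 4.23% and 0.32% of all genes. Limma-voom called 0 in both, where it called 0.346% and 0.0196% of all genes. The call count changed most without WT replicate 1, to 10 in KO and 8 in MUT, where 10.5% and 6.65% of all genes were called. It was 4 in KO without WT replicate 3, where 1.1% of all genes were called.

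**Figure D3:**
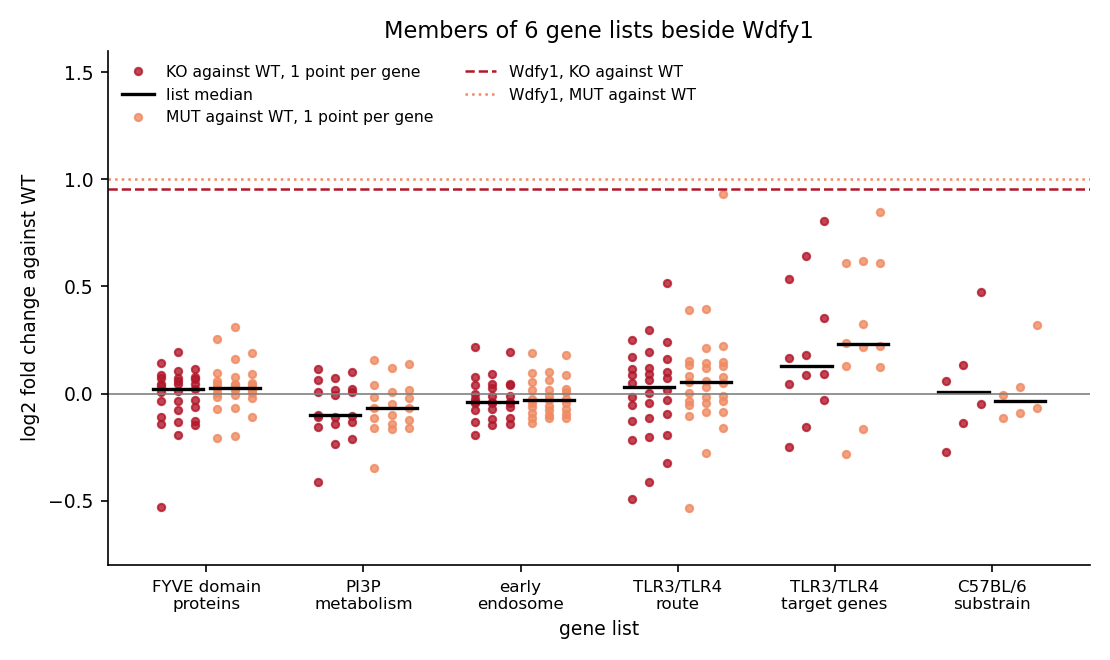
Log2 fold change against WT (vertical axis) of each tested member of 6 gene lists (horizontal axis), Wdfy1 left out. Dark red points are KO against WT, orange points MUT against WT, black bars list medians, and the dashed and dotted lines mark Wdfy1 at 0.96 in KO and 1.0 in MUT. The list medians lie between -0.10 and 0.23, and every member lies below both lines.

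Among the 29 other tested genes for FYVE domain proteins the median log2 difference was 0.02 in KO and 0.03 in MUT, and members ran from -0.53 (Fgd4) to 0.19 (Fyco1) in KO and from -0.21 (Plekhf1) to 0.31 (Fyco1) in MUT. Fyco1 encodes an adaptor that links late endosomes and autophagosomes to kinesin. Wdfy2, which encodes the nearest relative of WDFY1 and also sits on endosomes, was at 8.72, 6.71, 6.10 and 8.38 CPM in KO libraries and 9.04, 7.41, 9.40 and 8.51 CPM in MUT libraries, against 8.03, 8.18, 5.88 and 7.04 CPM in WT libraries. The groups overlapped for Wdfy2 (0.05, SE 0.15, in KO and 0.25, SE 0.15, in MUT, edgeR adjusted p = 0.907 and 0.574). Wdfy3, a large scaffold of selective autophagy, averaged 237 ± 12.1 CPM in KO and 262 ± 13.0 CPM in MUT, against 247 ± 27.7 CPM in WT libraries (SD, n = 4 each). Per kilobase of exon, Wdfy1 stood at 10.2, Wdfy2 at 3.72 and Wdfy3 at 16.6 CPM in KO, against 4.95, 3.62 and 17.3 CPM in WT libraries. Wdfy1 was thus the member of the trio whose level per length stood apart between KO and WT, which is how it was chosen.

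Eea1 encodes a tether that binds PI3P on early endosomes and lets them fuse. Eea1 was at 60.1 to 64.7 CPM in KO and 71.6 to 76.6 CPM in MUT libraries, against 59.7 to 76.5 CPM in WT libraries. Pikfyve encodes the kinase that turns PI3P into a bisphosphate. Pikfyve was at 49.96 to 51.3 CPM in KO and 55.8 to 61.5 CPM in MUT libraries, against 49.8 to 60.7 CPM in WT libraries. Neither gene passed in KO (Eea1 -0.13, SE 0.07, adjusted p = 0.338, and Pikfyve -0.19, SE 0.06, adjusted p = 0.13). Without WT replicate 3, which holds the lowest WT value of both, Pikfyve was called in KO (-0.25, SE 0.04, adjusted p = 0.0269). In MUT both were within 0.09 of WT.

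The 19 tested genes of PI3P synthesis and breakdown had medians of -0.10 in KO and -0.07 in MUT. Pik3c3, the lipid kinase that makes PI3P, was at -0.10 (SE 0.05) in KO and -0.07 (SE 0.05) in MUT. Its regulatory partner Pik3r4 was at -0.14 (SE 0.06) and -0.16 (SE 0.06). The smallest adjusted p in this group was 0.0655, for Mtmr9, an inactive member of the myotubularin family that helps active PI3P phosphatases (-0.23, SE 0.05, in KO). At an unadjusted p under 0.05 there were 5 of the 19 in KO, all lower, and in MUT 2 higher and 5 lower, beside 17.6% of all genes in KO and 10.9% in MUT. The 28 early endosome genes had medians of -0.04 and -0.03. Their extremes in KO were the related adaptors Appl2 at 0.22 (SE 0.06, adjusted p = 0.0842) and Appl1 at -0.19 (SE 0.05, adjusted p = 0.0758).

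The receptors and adaptors through which WDFY1 is known to act showed no call. Tlr3, the receptor for double-stranded RNA, was at 8.35, 8.39, 11.7 and 11.8 CPM in KO libraries and 11.2, 11.9, 11.1 and 10.5 CPM in MUT libraries, against 9.90, 11.4, 10.8 and 13.4 CPM in WT libraries. Tlr4, the receptor for lipopolysaccharide, was near the limit of detection, at 0.524 to 1.06 CPM in KO and 1.03 to 1.55 CPM in MUT, against 0.946 to 1.43 CPM in WT libraries. Ticam1, which encodes the adaptor TRIF, was at 4.41, 5.45, 5.05 and 5.31 CPM in KO libraries and 6.63, 5.98, 4.24 and 3.95 CPM in MUT libraries, against 4.79, 4.95, 4.94 and 5.97 CPM in WT libraries. All of them overlapped between groups, with adjusted p-values of at least 0.431. The 30 genes of the TLR3 and TLR4 route had medians of 0.03 in KO and 0.05 in MUT, and Tlr2, another toll-like receptor, was highest at 0.52 (SE 0.27) and 0.93 (SE 0.29, adjusted p = 0.393).

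Of 21 genes that signalling from TLR3 and TLR4 is known to induce, 12 had enough counts to be tested. Ifnb1, the type I interferon gene that is a main output of TRIF, had 0 counts in all 12 libraries, and Ccl5 had 9 and Cxcl10 had 46 over all 12. The tested members had medians of 0.13 in KO and 0.23 in MUT, the highest of the 6 groups, and 0 were called. Ifit3, an interferon-induced antiviral gene, was at 0.53 (SE 0.21, adjusted p = 0.224) in KO and 0.61 (SE 0.22, adjusted p = 0.409) in MUT. Usp18, a brake on interferon signalling, was at 0.81 (SE 0.34) in KO and 0.22 (SE 0.37) in MUT. Isg15, a ubiquitin-like interferon product, was at 0.35 (SE 0.36) in KO and 0.85 (SE 0.37) in MUT. Rsad2, another interferon-induced antiviral gene, was at -0.15 (SE 0.30) in KO and -0.28 (SE 0.32) in MUT, the lowest in MUT. Tnfaip3, a brake on NF-kappaB signalling, was lowest in KO at -0.25 (SE 0.15), and at 0.13 (SE 0.15) in MUT. The 12 markers of microglia, brain immune cells that carry these receptors, were all detected and summed to 432 to 460 CPM in KO and 435 to 464 CPM in MUT libraries, against 392 to 454 CPM in WT libraries. The part of microglia in the Wdfy1 levels was not tested.

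A last list held 10 genes described as differing in sequence or level between substrains of C57BL/6 mice. Wdfy1 is also described as such a gene but was not on the list. The list was included because the labels name no strain. Of its 10 members 6 were tested and 0 were called in the reported fit. Nnt, a mitochondrial enzyme that makes NADPH and is disrupted in C57BL/6J mice, was at 25.4, 23.9, 23.6 and 24.2 CPM in KO libraries and 22.5, 22.7, 41.7 and 24.7 CPM in MUT libraries, against 21.8, 24.9, 25.6 and 27.4 CPM in WT libraries. MUT replicate 3 stood alone above the other 11 libraries, and its Wdfy1 level was the lowest of the null libraries at 41.8 CPM. Ide, which encodes insulin-degrading enzyme, was at 110, 51.6, 57.2 and 85.6 CPM in KO libraries and 123, 118, 53.8 and 87.0 CPM in MUT libraries, against 84.0, 85.6, 108 and 79.6 CPM in WT libraries. Ide varied widely within each null line and its groups overlapped. The 3 libraries lowest in Ide, KO replicates 2 and 3 and MUT replicate 3, were at 43.2, 61.6 and 41.8 CPM of Wdfy1.

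**Figure D4:**
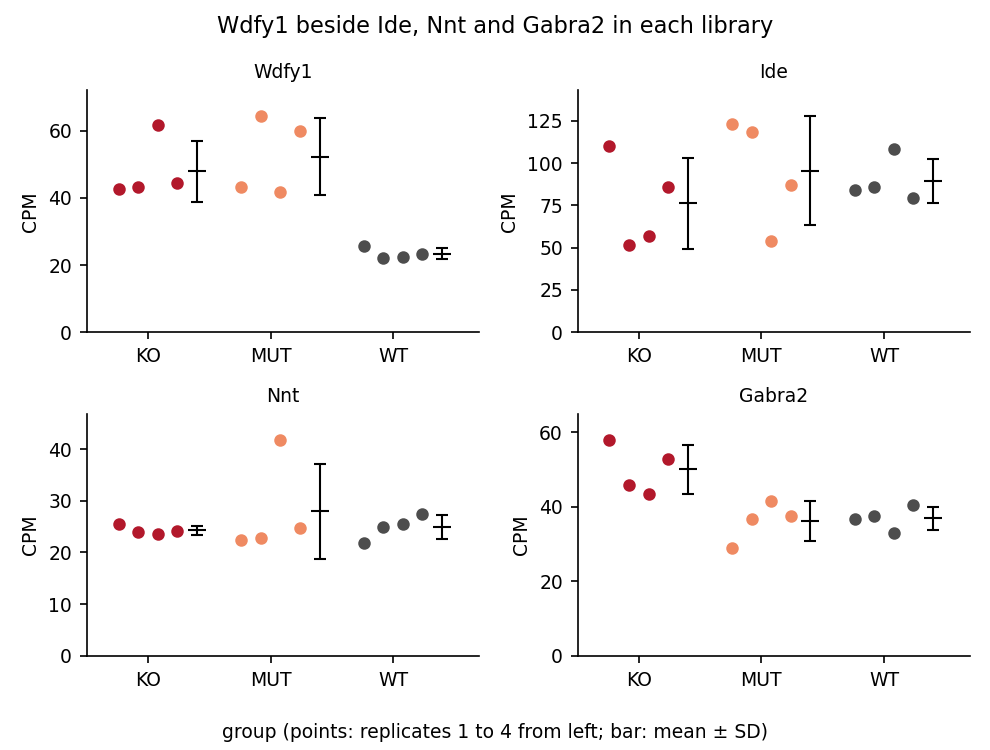
Levels (CPM, vertical axes) of Wdfy1, Ide, Nnt and Gabra2 in the 12 libraries by group (horizontal axes). Points are replicates 1 to 4 from left to right and black bars the group mean ± SD. Wdfy1 separates both null lines from WT, Ide overlaps between all groups, Nnt is high in MUT replicate 3 alone (41.7 CPM), and Gabra2 is higher in KO than in WT libraries without overlap.

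Gabra2, a subunit of the receptor for the inhibitory transmitter GABA that is low in C57BL/6J brain, was at 57.9, 45.9, 43.5 and 52.9 CPM in KO libraries and 28.8, 36.8, 41.6 and 37.6 CPM in MUT libraries. In WT libraries Gabra2 was at 36.6, 37.4, 33.0 and 40.6 CPM. The KO libraries lay above all others, and MUT and WT overlapped (0.47, SE 0.11, edgeR adjusted p = 0.0775 in KO, and 0.03, SE 0.12, adjusted p = 0.94 in MUT). Gabra2 was called in KO without WT replicate 1 (0.53, SE 0.13, adjusted p = 0.0327) and by DESeq2 (adjusted p = 0.00603). Wdfy1 was high in KO and MUT alike. Cyfip2, also on the list, was at 1196.5 to 1293.2 CPM in KO and 1257.5 to 1291.4 CPM in MUT libraries. In WT libraries it was at 1340.3 to 1451 CPM. Each null line lay wholly below WT, while 9.11% of tested genes did not overlap in KO and 7.09% in MUT, in either direction. Its differences were -0.14 (SE 0.04, edgeR adjusted p = 0.115) in KO and -0.11 (SE 0.04, adjusted p = 0.409) in MUT. DESeq2 (adjusted p = 0.0147) and edgeR without WT replicate 1 (adjusted p = 0.0491) called it in KO. The list medians were 0.01 in KO and -0.04 in MUT. Entpd4 and Entpd4b had 0 counts in all libraries. The counting settings are not given, so absent RNA and reads dropped as shared between genes cannot be told apart here. Whether the groups differ in substrain was not tested, since no genotypes were used here.

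The genes with profiles most like that of Wdfy1 were found by the root mean square difference, over the 12 libraries, of log2 CPM centred on each gene's own mean. The 6 nearest were Tgif1 (0.27), Amn (0.28), C4b (0.29), Asb16 (0.30), Cerkl (0.31) and Vwc2l (0.31). Over all tested genes the median difference was 0.57, and a flat profile would lie at 0.55. Since Wdfy1 was chosen for its height in the null groups, these 6 share that pattern by construction. C4b, a complement component, was at 60.5, 50.2, 67.3 and 49.6 CPM in KO libraries and 52.4, 51.4, 62.9 and 47.8 CPM in MUT libraries, against 33.8, 24.05, 24.95 and 35.7 CPM in WT libraries. Its highest null libraries were KO replicate 3 and MUT replicate 3, of which only the KO library was also high in Wdfy1. Its fitted log2 differences were 0.94 (SE 0.16) in KO and 0.85 (SE 0.16) in MUT, given without a p because the genes were chosen for their likeness to Wdfy1 over the same libraries. Amn, which encodes a membrane anchor of the receptor for vitamin B12, was at 6.15, 6.40, 9.04 and 6.87 CPM in KO and 8.80, 7.51, 5.10 and 7.17 CPM in MUT, against 5.23, 4.06, 4.25 and 3.82 CPM in WT libraries. The other 4 ran at lower levels, Tgif1, Asb16 and Cerkl with group means of at most 1.90 CPM. Only Vwc2l shares a chromosome with Wdfy1, 8.82 Mb away.

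When group means were taken out first, so that only the variation inside groups counted, a different set came nearest. It was Lsm5 (0.090), Ikzf1, Gm8203, D4Ertd617e, Pigv and the neighbour Utp14b (0.13), beside 0.21 for a flat profile and a median of 0.24. The sets had 0 genes in common. Utp14b, 1035 kb from Wdfy1, ranked 6 by this measure and 7897 by the first, and the next of the neighbours by the within-group measure, Acsl3, ranked 1276. The fitted difference of Utp14b for labelled female minus labelled male was 0.26 (SE 0.09), beside the 0.30 of Wdfy1, and is given without a p because the gene was chosen for its likeness.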

How the data were processed

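Per the labels' protocols, cortex RNA went into strand-specific NEBNext Ultra II libraries. Per the file headers, the deposited table gives raw counts by Entrez gene, with exon positions and summed exon length, in a featureCounts-like layout. The build mm10 and the tools DESeq2 1.34.0 and R 4.1.2 are named in the submitters' processing notes. Aligner, counter and strand setting: not given in the sources used here. Overlapping genes may therefore share reads. The 1049 genes without a symbol stayed in the totals and the tests.

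The gene, the lists and the tests were chosen with earlier results of these data known. Genes were kept with filterByExpr by group (minimum count 10, minimum total 15), normalised with TMM, and 1 robust quasi-likelihood model of the 12 libraries was fitted on group and labelled sex (edgeR 4.0.16 under R 4.3.3). Residual degrees of freedom were 8, and the common biological coefficient of variation was 0.101. P-values were adjusted by Benjamini-Hochberg over all genes, with a threshold of 0.05. CPM use TMM-scaled totals, and log2 CPM a prior count of 2. Neighbours lie within 2 Mb of Wdfy1. Named were Wdfy1 and Grn, every tested neighbour, the nearest 4 in each library, 9 members of the lists (Wdfy2, Wdfy3, Eea1, Pikfyve, Tlr3, Tlr4, Ticam1, Nnt and Gabra2), called list members and the 6 most alike genes. Cul3, Nyap2, Ide, C4b, Amn and the list members at the extremes, with an unadjusted p under 0.05 or at 0 counts were given in more detail after their values were seen, as was Pik3c3 for its role. Sequences came from GENCODE M21 (GRCm38, the build of the table). Alternatives were RLE or plain library size, other count filters, DESeq2 1.42.0, limma-voom (limma 3.58.1), other covariates, subsets, each library left out, robust estimation off (chosen after seeing the data), and windows of 1 and 5 Mb. No 2 libraries agreed within sampling noise (chi-square per degree of freedom at least 3.46 in 66 pairs).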

Additional observations from a re-analysis of the deposited data

Results flagged for a closer look

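Among 114 groups of 4 libraries, for the 38 genes followed in each library, 7 held a library set apart from the other 3 by a gap above the 95% limit of Dixon's test. Chance flags about 1 group in 20. Wdfy1 in KO replicate 3 was at 61.6 CPM, with the other KO libraries at 42.6 to 44.3 CPM. Nnt in MUT replicate 3 was at 41.7 CPM, with the other MUT libraries at 22.5 to 24.7 CPM. Eea1 in MUT replicate 3 was at 76.6 CPM, with the others at 71.6 to 72.2 CPM. Pikfyve in WT replicate 3 was at 49.8 CPM, with the others at 59.3 to 60.7 CPM. Tlr4 in KO replicate 2 was at 0.524 CPM, with the others at 0.998 to 1.06 CPM. Ticam1 in WT replicate 4 was at 5.97 CPM, with the others at 4.79 to 4.95 CPM. Ap1s3 in KO replicate 4 was at 4.36 CPM, with the others at 3.11 to 3.30 CPM.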

How the results depend on the processing

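The log2 difference of Wdfy1 stayed between 0.88 and 1.08 for KO minus WT and between 0.89 and 1.16 for MUT minus WT over 29 settings, moving less than the spread of its own group. Over 28 of these settings the number of genes called over all genes ran from 1 to 1620 in KO and from 2 to 1030 in MUT. Both highest numbers were found without WT replicate 1. For MUT minus KO it was -0.04238 in labelled males only, 0.24 without the 3 libraries high in choroid plexus markers, and -0.06096 to 0.1643 with a library left out. The labelled sex difference was 0.22 to 0.37 over 25 settings and passed in none of them.

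The number of list members called in KO was 0 in the reported fit, 2 with the choroid plexus marker level as a term, 6 with DESeq2, 1 in labelled males only, 3 with no sex term and 0 to 10 with a library left out. In MUT it was 0 to 8 with a library left out. In labelled males only, the MUT arm is replicate 3 alone, assumed to vary like the others. The largest list difference named there was 0.69 for Nnt. Of the neighbours, 2 were called in KO with the choroid plexus marker level as a term, 2 with DESeq2, 1 in labelled males only, 2 with no sex term, 1 of 55 in a window of 5 Mb, and 0 to 3 with a library left out. In MUT, 0 to 1 were called with a library left out. Over all genes KO calls numbered 75 in the reported fit, 316 with the choroid plexus term, 647 with DESeq2, 1163 in labelled males and 294 with no sex term. The cause of these shifts was not tested. Cul3 and Nyap2 passed in KO in 5 of 29 settings, with differences of -0.19 to -0.14 and -1.14 to -0.44. The genes most like Wdfy1 within groups shared 0 with the reported set.

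No pairing by replicate number was seen: same-numbered libraries correlated at -0.38 to 0.29 in their deviations, 1 of 12 pairs exceeding 0.1. Differences in tissue content also enter these correlations, so they cannot exclude a pairing. With replicate number as a block, the Wdfy1 difference was 0.94 for KO minus WT, 0.97 for MUT minus WT and 0.03 for MUT minus KO, and 0 neighbours and 0 list members were called. Over all genes 2 were then called in KO, against 75 in the reported fit. Depth limits the reading of Tlr4, Gm2102, the interferon targets and the 7 untested neighbours.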
